A study of Mus musculus with 16 samples.

Results

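The genes that build cholesterol, take it up, store it as esters and move it inside the cell were followed in mouse adrenal glands. The set holds 36 genes named for these roles. They were found by matching the Ensembl identifiers of the deposited count table to GENCODE mouse M21 symbols: all 36 have 1 row each among its 54838, and all 36 passed the filter on low counts, which kept 18214 genes. Whole adrenal RNA was sequenced from 16 mice of mixed genetic background at 4 weeks of age, with 1 mouse per library. The 4 groups of 4 mice were female control, male control, female Rspo1 GOF and male Rspo1 GOF. GOF stands for gain of function; the product of Rspo1 is R-spondin 1, a secreted factor that potentiates WNT signals. The allele, the promoter that drives Rspo1 and the genotype of the controls are not given in the sources used here.

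Steroid-making cells of the adrenal cortex use cholesterol as the starting material of every steroid hormone. They take it up from lipoproteins, release it from stored esters, or make it from acetyl-CoA through mevalonate, isoprenoids and squalene. Many genes of synthesis and uptake are switched on together by SREBP2, the product of Srebf2, when sterols in the endoplasmic reticulum are low, while the liver X receptors switch on sterol export when oxysterols are high.

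The promoters of the set were examined for 3 short words on both strands, in the 250 bases before each gene's start (RefSeq, GRCm38.p6). They were CCAAT, the box bound by NF-Y, a partner of SREBP2; TCACNCCAC, a core of the sterol regulatory element; and CAAGGTCA, a site of the steroidogenic factor NR5A1. Of the 36 genes, 29 had an entry; Fdps, Fdft1, Sqle, Scarb1, Npc1, Stard4 and Abcg1 had none. CCAAT stood in 22 of the 29, and in 14 of the 15 synthesis genes with an entry (Acat2 was the other), against 37.5% of all 27025 genes with an entry. TCACNCCAC stood in Hmgcs1 and Stard3, against 1.22% of all genes, and CAAGGTCA in Dhcr7, against 1.51%. A match describes letters and is not evidence of binding, and none of these words was tested against expression. The 150 bases before the start are shown for 5 synthesis genes and for the lysosomal lipase Lipa; Mvk, Mvd, Nsdhl and Ebp fell in GOF females, Lipa rose in both sexes and Hmgcs1 was called in neither. Capitals mark the words on either strand (ATTGG is CCAAT read on the other strand), and each sequence runs 5′ to 3′ on the gene's own strand.
Mvk (chr5:114444119-114444268, plus strand): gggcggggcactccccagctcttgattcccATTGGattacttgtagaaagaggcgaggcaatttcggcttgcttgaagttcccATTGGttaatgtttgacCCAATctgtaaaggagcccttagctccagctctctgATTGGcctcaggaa
Mvd (chr8:122443423-122443572, minus strand): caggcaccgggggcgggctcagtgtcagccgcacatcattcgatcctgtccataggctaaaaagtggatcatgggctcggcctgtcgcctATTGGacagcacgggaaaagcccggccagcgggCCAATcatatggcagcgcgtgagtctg
Nsdhl (chrX:72918371-72918520, plus strand): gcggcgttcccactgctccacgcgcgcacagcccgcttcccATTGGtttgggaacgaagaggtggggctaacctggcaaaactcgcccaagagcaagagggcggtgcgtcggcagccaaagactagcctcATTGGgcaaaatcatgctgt
Ebp (chrX:8193513-8193662, minus strand): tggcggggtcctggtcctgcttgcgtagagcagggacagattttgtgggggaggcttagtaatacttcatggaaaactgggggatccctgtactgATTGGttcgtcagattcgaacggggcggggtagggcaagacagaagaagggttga
Hmgcs1 (chr13:119690201-119690350, plus strand): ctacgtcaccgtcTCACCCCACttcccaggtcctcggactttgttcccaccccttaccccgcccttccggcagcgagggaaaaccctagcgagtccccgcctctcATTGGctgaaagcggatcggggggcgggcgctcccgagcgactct
Lipa (chr19:34527475-34527624, minus strand): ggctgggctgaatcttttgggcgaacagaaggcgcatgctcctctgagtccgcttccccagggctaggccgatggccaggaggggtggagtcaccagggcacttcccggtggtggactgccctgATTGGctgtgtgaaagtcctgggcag
Mvk held 4 copies of the CCAAT box within this stretch, Mvd and Nsdhl 2 each, and Ebp, Hmgcs1 and Lipa 1 each. Of these 6 stretches, that of Hmgcs1 alone held the sterol regulatory word.

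Library totals ran from 31275146 to 43003968 counts. Levels are CPM, counts per 1000000 counts, scaled with TMM factors, which correct for differences in library composition. Rspo1 itself read 354 to 532 CPM in female GOF and 535 to 972 CPM in male GOF, against 3.20 to 40.6 in female and 19.4 to 48.2 in male controls, so every library lay on the side of its labelled genotype. The 8 adrenal cortex markers summed to 33127 to 52444 CPM in male controls, the group with the lowest library, and to 45713 to 53153 CPM in female GOF, the group with the highest. Some libraries held RNA of neighbouring tissue: 8 liver genes summed to 8006 CPM in male control 2 and to 58.1 CPM or less elsewhere, and 7 kidney tubule genes to 804 CPM in female control 1, 147 CPM in female control 3 and at most 1.70 CPM elsewhere.

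Per gene length, as the authors' FPKM, Apoe, Scarb1, Dhcr7 and Soat1 were the most abundant members. Apoe, a lipid-carrying apolipoprotein, had a mean of 2969 FPKM over the 16 libraries, and Scarb1, the receptor that takes up cholesteryl esters from high-density lipoprotein, 1764 FPKM. Dhcr7, the reductase of the last synthetic step, followed with 453 FPKM and Soat1, which esterifies cholesterol for storage, with 417 FPKM. Fdps, the farnesyl pyrophosphate synthase, was lowest with 6.47 FPKM and had 15 to 1043 counts per library. For Fdps, 76.8% of its transcript recurs, at 95% identity or more, in 4 annotated pseudogenes, which were listed with a median of 0 counts per library, against 78.5 for Fdps. For Acat2, the cytosolic thiolase that starts the pathway, 65.6% recurs in Acat3 and Tcp1, whose median counts per library summed to 5173, against 2725.5 for Acat2. How reads that match several genes were counted is not given in the sources used here. In all, 13 members overlap a gene on the opposite strand, and the strand setting of the counting is not given in the sources used here; 7 overlap a gene on their own strand, among them Tm7sf2 (Vps51) and Stard5 (Gm45838, with Il16 on the opposite strand).

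**Figure D1:**
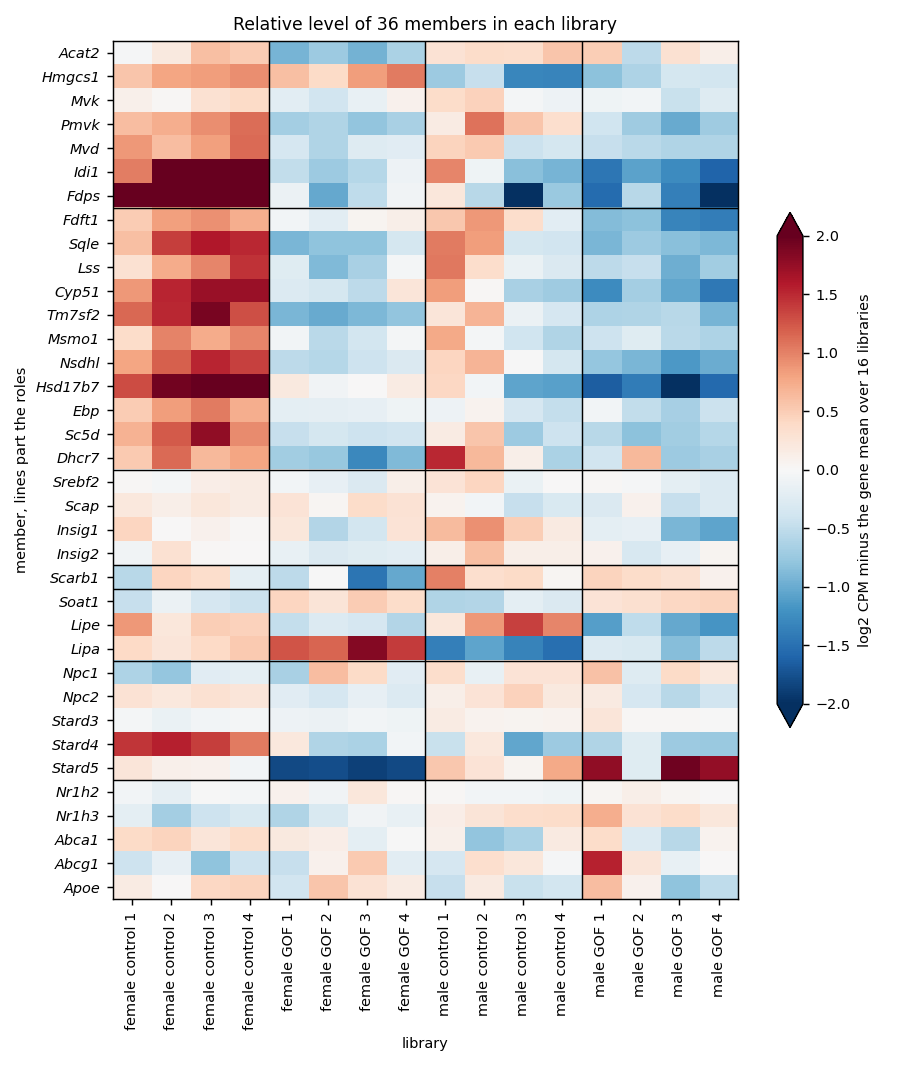
Level of each of the 36 genes (vertical axis, grouped by role) in each of the 16 libraries (horizontal axis), as log2 CPM minus the gene's mean over the libraries; the colour scale stops at 2 in either direction. Synthesis genes from Acat2 to Dhcr7 are mostly red in the 4 female controls, where the median of the 18 genes is 0.61 to 1.13, and blue in the 4 male GOF libraries, where it is -0.78 to -0.59.

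The first question was how Rspo1 GOF changed these genes within each sex. In females, most of the pathway was lower in GOF: 21 of 36 members fell and 2 rose, and 17 of the 18 synthesis genes fell. In males 15 members fell and 3 rose, and 11 of the 18 synthesis genes fell; without male control 1, or with limma on log2(FPKM + 1) and no filter, 6 of them fell. A gene was called where its p-value from the quasi-likelihood test of edgeR, adjusted by Benjamini-Hochberg over all 18214 genes, was under 0.05. Over all genes, 39.6% were called in females (19.0% higher and 20.6% lower) and 36.9% in males (15.2% higher and 21.8% lower). The median log2 fold change (GOF over control) of the synthesis genes was -1.58 in females and -0.80 in males, against 0.05 and 0.01 over all genes. Of the whole set, 13 members fell in both sexes, 2 rose in both, 1 moved in opposite directions, 7 were called in females alone, 2 in males alone and 11 in neither. A call in 1 sex alone is not a difference between the sexes, which has its own test, the interaction of sex and genotype. RNA from whole glands does not tell fewer cells of a type from less RNA per cell.

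**Figure D2:**
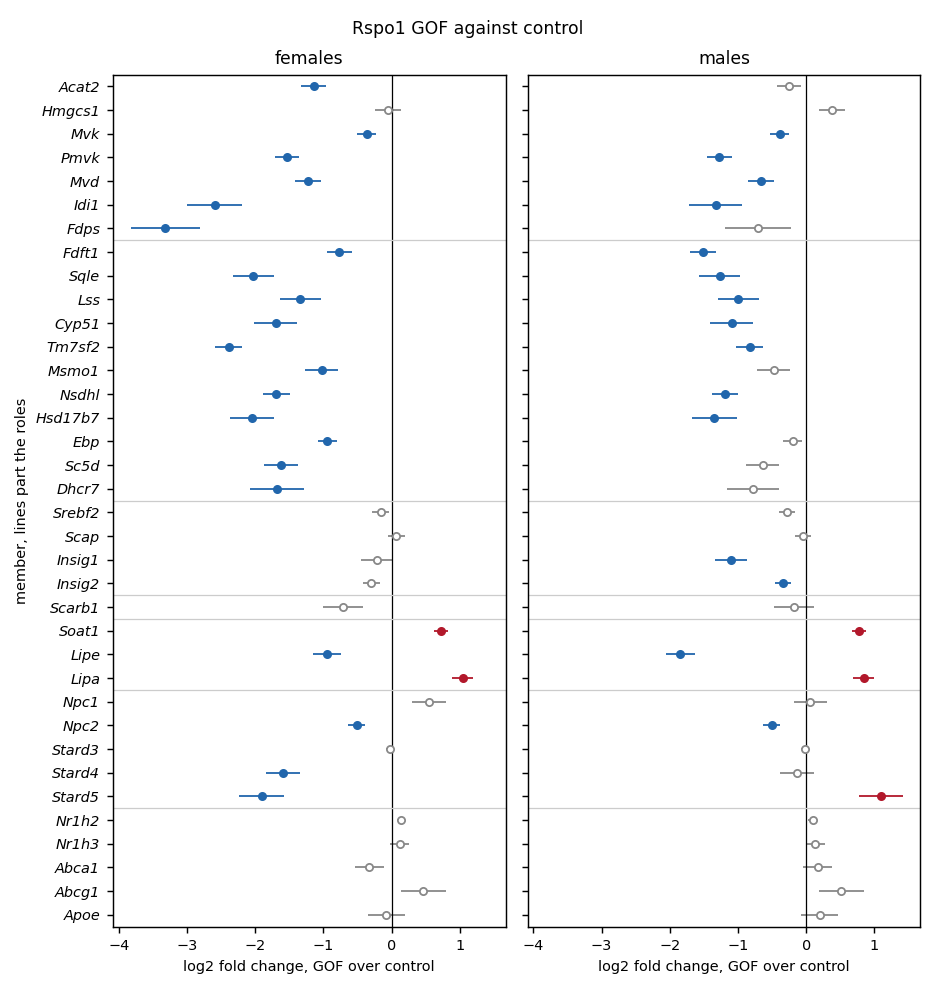
Log2 fold change of GOF over control (horizontal axis, point with standard error) for the 36 genes (vertical axis) in females and males; filled blue points were called lower, filled red points higher and open points neither, by edgeR. In females 17 of the 18 synthesis genes are filled blue, and Soat1 and Lipa are filled red in both sexes.

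Synthesis begins with acetyl-CoA and runs to farnesyl pyrophosphate, the last isoprenoid shared with other products. Of 7 genes of this stretch, 6 fell in GOF females and 4 in GOF males, with medians of -1.22 and -0.66. Fdps stood at 16.8, 24.95, 28.8 and 30.6 CPM in the female controls and 3.04, 1.63, 2.33 and 3.14 CPM in female GOF. Male Fdps levels were 3.88, 2.25, 0.464 and 1.98 CPM in controls and 1.14, 2.26, 1.28 and 0.574 CPM in GOF. The 4 female controls stood above all other libraries, and the male groups overlapped near the low end. The log2 fold change of Fdps was -3.32 ± 0.51 (SE; edgeR adjusted p = 0.000152) in females, and the male value, -0.71 ± 0.49, was not called (adjusted p = 0.272). Idi1 (ENSMUSG00000058258, chromosome 13, 8885501 to 8892451, GRCm38) encodes the isomerase of isopentenyl pyrophosphate. Idi1 stood at 176, 389.7, 509 and 447 CPM in the female controls and 61.6, 52.2, 57.9 and 80.3 CPM in female GOF. Male Idi1 levels were 171, 81.7, 48.3 and 45.1 CPM in controls and 31.8, 41.3, 36.2 and 28.3 CPM in GOF. Controls and GOF did not overlap in either sex, but controls were spread: female control 1 lay far under the other female controls, and male control 1 far above the other males. The log2 fold change of Idi1 was -2.59 ± 0.40 in females and -1.33 ± 0.39 in males (edgeR adjusted p = 0.000194 and 0.0156). Without male control 1 the mean of male controls was 58.4 ± 20.3 CPM (SD, n = 3) in place of 86.4 ± 58.5, and the male call was lost (log2 fold change -0.76, edgeR adjusted p = 0.0676).

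Between mevalonate and isopentenyl pyrophosphate lie 2 kinases and a decarboxylase, the products of Mvk, Pmvk and Mvd. Pmvk stood at 28.4, 30.4, 34.9 and 39.9 CPM in the female controls and 11.5, 12.1, 10.7 and 11.8 CPM in female GOF. Male Pmvk levels were 20.7, 39.3, 27.05 and 23.3 CPM in controls and 14.02, 11.2, 9.16 and 11.2 CPM in GOF. All 8 GOF libraries lay under all 8 controls. Pmvk fell by 1.53 ± 0.18 on the log2 scale in females and by 1.27 ± 0.18 in males, with edgeR adjusted p-values of 1.92e-05 and 6.88e-05. Mvd was 26.3 ± 3.90 CPM in female controls and 11.3 ± 1.29 in female GOF, and 15.5 ± 5.31 against 9.79 ± 0.459 in males (SD, n = 4), a log2 fold change of -1.22 and -0.66. The male call of Mvd was lost in 8 of 27 alternatives, over which its value ran from -0.81 to -0.43. Among them were the fits without male control 1 or male control 2 (log2 fold change -0.53 and -0.50, edgeR adjusted p = 0.0503 and 0.0607). Mvk moved least among the called synthesis genes, with -0.37 in females and -0.39 in males, and its calls were lost in 11 and 12 of 27 alternatives, over which its values ran from -0.49 to -0.30 and from -0.48 to -0.25.

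Acat2 and Hmgcs1 encode the first enzymes of the route. Acat2 stood at 70.1, 81.9, 108 and 102 CPM in the female controls and 37.5, 43.2, 36.9 and 45.9 CPM in female GOF. Male Acat2 levels were 87.7, 91.99, 91.01 and 105 CPM in controls and 101, 49.5, 88.2 and 77.7 CPM in GOF. Female GOF lay under every other library, while the male groups overlapped. Acat2 had a log2 fold change of -1.14 ± 0.18 in females (edgeR adjusted p = 0.000208) and -0.25 ± 0.18 in males (adjusted p = 0.29). Hmgcs1 encodes the cytosolic synthase of hydroxymethylglutaryl-CoA. Hmgcs1 stood at 344, 405, 421 and 448 CPM in the female controls and 355, 307, 418 and 484 CPM in female GOF. Male Hmgcs1 levels were 143, 171, 94.7 and 93.9 CPM in controls and 134, 154, 184 and 182 CPM in GOF. Its levels followed sex, with every female library above every male one, and GOF overlapped control in both sexes. Hmgcs1 was the only synthesis gene not called in GOF females (-0.05 ± 0.19, edgeR adjusted p = 0.859), and in males its value was 0.38 ± 0.19 (adjusted p = 0.132).

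From squalene onward, 11 of 11 genes fell in GOF females and 7 of 11 in GOF males, with median log2 fold changes of -1.68 and -0.99. Tm7sf2 (ENSMUSG00000024799, chromosome 19, 6062821 to 6068373, GRCm38) encodes a sterol reductase. Tm7sf2 stood at 56.2, 72.2, 94.4 and 61.9 CPM in the female controls and 13.5, 12.7, 13.6 and 14.6 CPM in female GOF. Male Tm7sf2 levels were 29.8, 40.4, 23.5 and 19.98 CPM in controls and 16.5, 16.8, 17.3 and 13.2 CPM in GOF. Controls lay above GOF without overlap in both sexes, and female controls lay above all others. Tm7sf2 had a log2 fold change of -2.39 ± 0.20 in females (edgeR adjusted p = 1.55e-06) and -0.83 ± 0.19 in males (adjusted p = 0.0039). Hsd17b7 (ENSMUSG00000026675, chromosome 1, 169949535 to 169969241, GRCm38) encodes the ketoreductase that acts during removal of methyl groups from the sterol ring. Hsd17b7 stood at 51.8, 79.4, 130.03 and 101 CPM in the female controls and 23.8, 19.9, 20.9 and 23.3 CPM in female GOF. Male Hsd17b7 levels were 27.8, 20.2, 10.02 and 9.87 CPM in controls and 6.63, 7.92, 5.08 and 7.07 CPM in GOF. The groups were ordered from female control down to male GOF, and male controls overlapped female GOF. Hsd17b7 fell by 2.04 ± 0.32 in females and by 1.35 ± 0.33 in males on the log2 scale (edgeR adjusted p = 0.000223 and 0.00512).

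Fdft1, the squalene synthase that commits isoprenoids to sterols, had the lowest fold change of the synthesis genes in males. Fdft1 stood at 99.5, 124, 132 and 116 CPM in the female controls and 67.8, 60.7, 73.3 and 75.9 CPM in female GOF. Male Fdft1 levels were 102, 128, 89.4 and 60.7 CPM in controls and 38.4, 39.6, 28.3 and 26.9 CPM in GOF. The 4 male GOF libraries were under all others, and female GOF was under the female controls. The log2 fold change of Fdft1 was -0.76 ± 0.19 in females and -1.51 ± 0.19 in males (edgeR adjusted p = 0.00505 and 2.64e-05), and 33.7% of its transcript recurs in the pseudogene Gm6781. Cyp51, the lanosterol demethylase, also fell in both sexes. Cyp51 stood at 107, 169, 193 and 193 CPM in the female controls and 48.4, 45.9, 40.5 and 68.8 CPM in female GOF. Male Cyp51 levels were 104, 59.5, 37.2 and 35.7 CPM in controls and 24.4, 36.4, 28.3 and 21.6 CPM in GOF. Female control 1 and male control 1 were close to each other, and male GOF 2 reached into the range of the male controls. Cyp51 had -1.70 ± 0.32 in females and -1.10 ± 0.32 in males on the log2 scale (edgeR adjusted p = 0.000825 and 0.0145), and the male call was lost without male control 1 (log2 fold change -0.67, edgeR adjusted p = 0.054).

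Ebp encodes the sterol isomerase. Ebp stood at 59.1, 73.95, 84.7 and 68.3 CPM in the female controls and 36.2, 36.5, 37.2 and 39.1 CPM in female GOF. Male Ebp levels were 38.6, 43.4, 32.9 and 29.9 CPM in controls and 39.9, 29.4, 26.3 and 30.7 CPM in GOF. The female controls stood above the other 12 libraries, which overlapped. Ebp fell by 0.94 ± 0.14 on the log2 scale in females (edgeR adjusted p = 0.000115), and in males its value was -0.20 ± 0.14 (adjusted p = 0.283). Of the other 6 genes, squalene epoxidase Sqle, lanosterol synthase Lss and the sterol dehydrogenase Nsdhl fell in both sexes, by 2.03, 1.34 and 1.69 in females and by 1.27, 0.99 and 1.19 in males. The male call of Lss was lost without male control 1 or male GOF 3 (log2 fold change -0.65 and -0.91, edgeR adjusted p = 0.0635 and 0.0512). The methylsterol oxidase Msmo1, the desaturase Sc5d and the reductase Dhcr7 fell in females, with -1.03, -1.62 and -1.68. Their male values were -0.48, -0.64 and -0.78, with edgeR adjusted p-values of 0.135, 0.0531 and 0.127.

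Markers of other cells moved in the same comparisons. The X-zone, an inner cortical layer that young females keep, is marked by Akr1c18 and Pik3c2g. Their summed level was 4909.9 to 7358 CPM in female controls, 0.117 to 1.05 CPM in female GOF, 0.00 to 3.25 CPM in male controls and 0.0302 to 0.106 CPM in male GOF, with Pik3c2g at 0 in female GOF 1, male control 1 and male GOF 2 and 4 and Akr1c18 at 0 in male control 1. Female controls were thus the only group with more than 3.25 CPM of these markers, and their medians of the synthesis genes were also above those of every other library. All 8 medulla markers fell in GOF in both sexes, with sums of 4712 to 10774 CPM in female controls against 196 to 766 in female GOF, and 7529 to 11282 against 394 to 879 CPM in males. Of 8 adrenal cortex markers, 2 rose and 1 fell in each sex. These are 37.5% of the list, against 39.6% of all genes called in females and 36.9% in males. Over all genes, 19.0% rose and 20.6% fell in females, and 15.2% rose and 21.8% fell in males. Of 4 zona glomerulosa markers, 2 fell in females and 4 in males, with sums of 722 to 789 against 345 to 509.6 CPM in females and 733 to 1172 against 247 to 369 CPM in males. Of 6 capsule and fibroblast markers, 5 fell in females and 6 in males, with sums of 635 to 721 against 171 to 356 CPM in females and 913 to 2447 against 370.2 to 437 CPM in males. Of 5 endothelial markers, none was called in females and 2 rose in males, with sums of 468 to 599 against 488 to 571 CPM in females and 326 to 739 against 682 to 888 CPM in males. The part of these cell types in the fall of the synthesis genes was not tested.

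Of the 4 sensors of sterol level, none was called in GOF females, with log2 fold changes from -0.30 to 0.07, and Insig1 and Insig2 fell in GOF males. Srebf2 and Scap, which carries SREBP2 out of the endoplasmic reticulum, were not called in either sex. INSIG proteins hold that pair back when sterols are plentiful. Insig1 stood at 113, 84.4, 88.8 and 85.1 CPM in the female controls and 97.8, 55.5, 65.2 and 101 CPM in female GOF. Male Insig1 levels were 130.4, 157, 117 and 95.3 CPM in controls and 73.4, 74.3, 44.4 and 40.4 CPM in GOF. The 4 male GOF libraries lay under the 4 male controls, and the female groups overlapped. Insig1 fell by 1.10 ± 0.24 on the log2 scale in males (edgeR adjusted p = 0.00231), against -0.22 ± 0.24 in females (adjusted p = 0.489). Insig2 stood at 54.4, 70.5, 57.9 and 57.2 CPM in the female controls and 51.3, 46.7, 48.1 and 49.3 CPM in female GOF. Male Insig2 levels were 61.8, 86.9, 62.1 and 62.1 CPM in controls and 60.2, 45.8, 50.6 and 58.9 CPM in GOF. Male control 2, the library with liver RNA, was the highest. Insig2 had -0.34 ± 0.12 in males (edgeR adjusted p = 0.0376) and -0.30 ± 0.12 in females (adjusted p = 0.0627); the male call was lost on leaving out male control 2, or GOF library 2 or 3 of the males (log2 fold change -0.20, -0.29 and -0.32, edgeR adjusted p = 0.146, 0.0899 and 0.0811).

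Scarb1 provides most lipoprotein cholesterol to mouse adrenal cells. Scarb1 stood at 1608, 3214, 3014 and 2068 CPM in the female controls and 1661, 2371, 859 and 1167 CPM in female GOF. Male Scarb1 levels were 4773, 3008, 3105 and 2435 CPM in controls and 3247, 3073, 2926 and 2534 CPM in GOF. The spread within female groups was wide, and GOF overlapped control in both sexes. Its log2 fold change was -0.71 ± 0.29 in females (edgeR adjusted p = 0.0683) and -0.18 ± 0.29 in males (adjusted p = 0.67), neither called.

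Genes of ester storage and release were all called in both sexes, in opposite directions within the group: Soat1 and Lipa rose and Lipe fell. Soat1 was 642 ± 71.2 CPM in female controls and 1059.98 ± 75.2 in female GOF, and 607 ± 87.6 against 1036 ± 59.98 in males (SD, n = 4). Its log2 fold changes of 0.72 ± 0.11 and 0.77 ± 0.11 (edgeR adjusted p = 0.000112 and 5.59e-05) left no overlap between a GOF library and a control. Lipa (ENSMUSG00000024781, chromosome 19, 34492318 to 34527474, GRCm38) encodes the lysosomal acid lipase, which frees cholesterol from esters taken up in lipoproteins. Lipa stood at 402, 362, 404 and 440.2 CPM in the female controls and 734, 685, 1098 and 804 CPM in female GOF. Male Lipa levels were 118, 147, 121 and 108 CPM in controls and 254, 249, 169.7 and 214 CPM in GOF. GOF lay above control in each sex, and every female library lay above every male one. Lipa had 1.04 ± 0.15 in females and 0.84 ± 0.15 in males on the log2 scale (edgeR adjusted p = 0.000114 and 0.000636).

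Lipe encodes hormone-sensitive lipase, which hydrolyses cholesteryl esters in lipid droplets and is also abundant in fat cells. Lipe stood at 186, 119, 144 and 140.3 CPM in the female controls and 73.3, 84.9, 80.9 and 67.9 CPM in female GOF. Male Lipe levels were 119.6, 187, 265 and 201 CPM in controls and 47.7, 71.7, 50.3 and 44.9 CPM in GOF. GOF lay under control in both sexes, and male control 3 was the highest library. Lipe fell by 0.94 ± 0.21 in females and by 1.85 ± 0.21 in males on the log2 scale (edgeR adjusted p = 0.00259 and 1.24e-05). Adipocyte markers fell too, 7 of 8 in females and 8 of 8 in males, against 20.6% and 21.8% of all genes called lower. Their summed level was 1838 to 2338 CPM in female controls against 476 to 937 in female GOF, and 2353 to 4685 against 373 to 471 CPM in males. Of 10 macrophage markers, 3 rose in females (30.0%, against 19.0% of all genes called higher) and 7 in males (70.0%, against 15.2%), with sums of 224 to 371 against 315 to 838 CPM in females and 407 to 545 against 602 to 2183 CPM in males. The part of either cell type in the values of Lipe and Lipa was not tested.

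**Figure D3:**
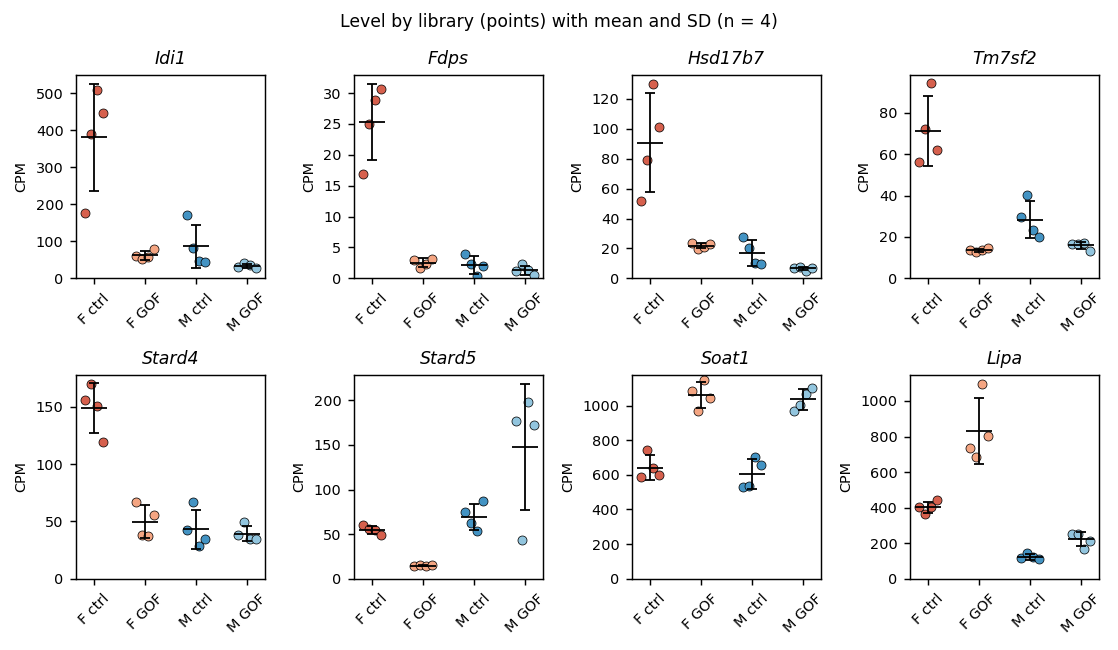
CPM of 8 members in each library (points), with the mean and SD of the 4 libraries of a group (F female, M male, ctrl control; vertical axes start at 0 and differ between panels). Female controls stand apart in Fdps, Hsd17b7, Tm7sf2 and Stard4, and female control 1 is close to male control 1 in Idi1. In Stard5, female GOF is lowest and male GOF 2 lies under the other male GOF libraries. Within each sex, GOF is above control in Soat1 and Lipa.

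Among the genes of transport inside the cell, Stard5 was the 1 member of the set called in opposite directions in the sexes. Stard5 (ENSMUSG00000046027, chromosome 7, 83631959 to 83653127, GRCm38) encodes a soluble START-domain lipid-binding protein. Stard5 stood at 60.5, 55.3, 54.4 and 49.2 CPM in the female controls and 14.8, 15.1, 14.1 and 14.8 CPM in female GOF. Male Stard5 levels were 74.9, 62.3, 53.1 and 86.9 CPM in controls and 176, 43.2, 199 and 173 CPM in GOF. Female GOF was the lowest of the 4 groups with almost no spread, 3 male GOF libraries were the highest of all, and male GOF 2 fell below every male control. Stard5 fell by 1.90 ± 0.33 on the log2 scale in females (edgeR adjusted p = 0.000466) and rose by 1.09 ± 0.32 in males (adjusted p = 0.0153). The male call was lost in 5 of 27 alternatives, among them leaving out male GOF 3 (log2 fold change 0.90, edgeR adjusted p = 0.0568). Stard4 encodes a sterol carrier of the same family that is a known SREBP2 target. Stard4 stood at 156, 170.3, 151 and 119 CPM in the female controls and 67.3, 38.4, 37.5 and 55.6 CPM in female GOF. Male Stard4 levels were 42.4, 67.3, 28.3 and 34.9 CPM in controls and 38.2, 49.1, 34.96 and 34.9 CPM in GOF. Only the female controls stood apart, above the other 12 libraries. Stard4 had -1.59 ± 0.25 in females (edgeR adjusted p = 0.000209) and -0.14 ± 0.25 in males (adjusted p = 0.697).

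Npc2, the soluble protein that hands cholesterol to NPC1 in the lysosome, fell in both sexes. Npc2 stood at 253, 241, 257 and 246 CPM in the female controls and 177, 164, 186 and 173 CPM in female GOF. Male Npc2 levels were 224, 249.8, 285 and 237 CPM in controls and 236, 165, 142 and 158 CPM in GOF. Female groups did not overlap; male GOF 1 lay within the male controls. Npc2 had -0.51 ± 0.12 and -0.51 ± 0.12 (edgeR adjusted p = 0.00464 and 0.00511). The female call was lost without the 3 libraries with liver or kidney RNA (log2 fold change -0.48, edgeR adjusted p = 0.0512). Npc1, the membrane partner, was not called (0.55 ± 0.25 and 0.06 ± 0.25), and neither was Stard3, the START-domain protein of late endosomes (-0.02 ± 0.063 and -0.02 ± 0.063), for which all 16 libraries lay between 29.5 and 38.1 CPM.

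No gene of the liver X receptor and export group was called in GOF in either sex. The receptors Nr1h2 and Nr1h3 had log2 fold changes of 0.14 ± 0.063 and 0.12 ± 0.14 in females and 0.09 ± 0.063 and 0.13 ± 0.14 in males. The exporter Abca1 had -0.32 ± 0.22 and 0.17 ± 0.22, Abcg1 had 0.46 ± 0.33 and 0.51 ± 0.33, and Apoe -0.07 ± 0.27 and 0.20 ± 0.27. Apoe was between 1428 and 3815 CPM over the 16 libraries, and its groups overlapped throughout.

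The second question was how males and females differed within each genotype. In controls, 14 members were lower and 1 higher in males, and 12 of the 18 synthesis genes were lower; over all genes 23.4% were called, 13.5% higher and 9.89% lower. In GOF, 6 members were lower and 4 higher in males, and 5 synthesis genes were called, 4 lower and 1 higher, against 29.6% of all genes, 13.3% higher and 16.3% lower. The median log2 fold change (male over female) of the synthesis genes was -0.94 in controls and -0.24 in GOF, and that of all genes 0.08 and 0.03. The 2 comparisons share no library with each other, but each shares its libraries with the GOF comparisons above. Of 6 capsule and fibroblast markers, 5 were higher in males in each genotype. Of 8 adrenal cortex markers, 1 was higher and 1 lower in controls, and 1 higher and 4 lower in GOF. Both X-zone markers were lower in male controls, and neither was called in GOF. Of 5 endothelial markers, none was called in controls and 4 were higher in GOF. The part of these cell types in the differences between the sexes was not tested.

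**Figure D4:**
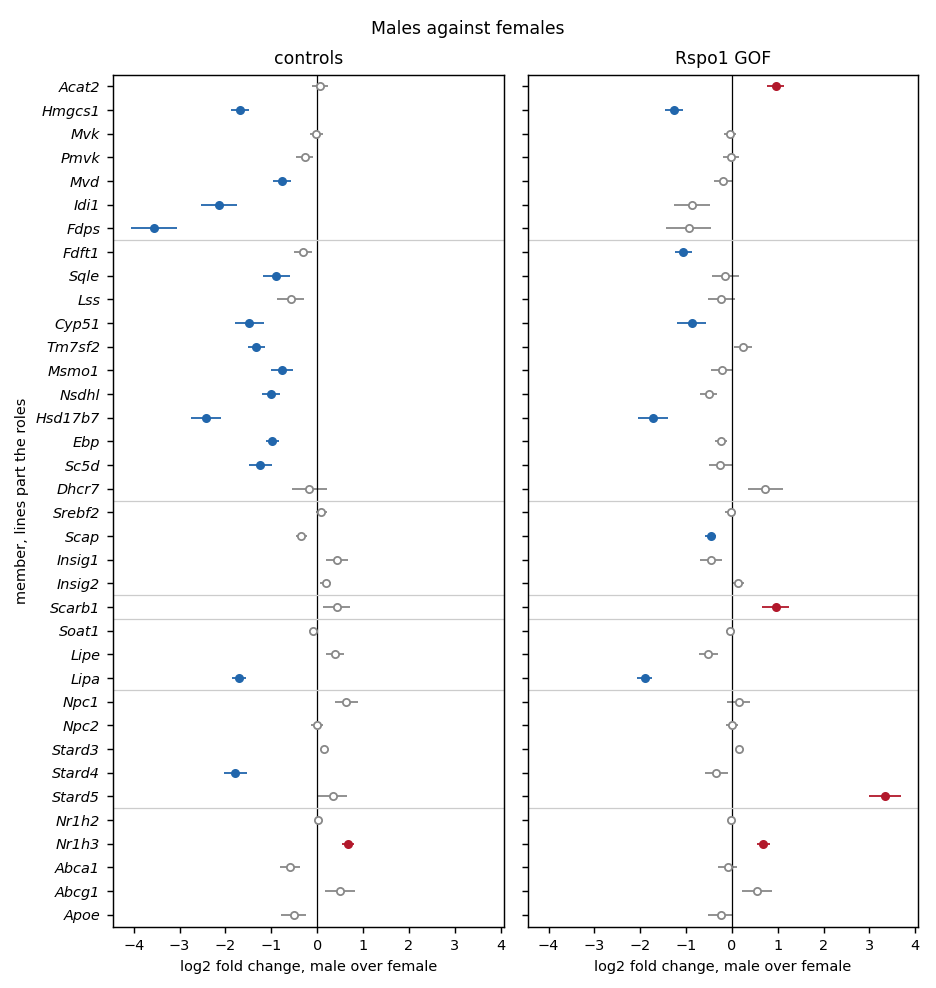
Log2 fold change of males over females (horizontal axis, point with standard error) for the 36 genes (vertical axis) in controls and in GOF; filled blue points were called lower in males, filled red points higher and open points neither, by edgeR. In controls 12 synthesis genes are filled blue, in GOF 4 are, and Stard5 in GOF lies farthest to the right.

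In controls the lowest values were those of Fdps (-3.56 ± 0.51), Hsd17b7 (-2.42 ± 0.33), Idi1 (-2.14 ± 0.40), Stard4 (-1.79 ± 0.25), Lipa (-1.70 ± 0.16) and Hmgcs1 (-1.69 ± 0.20), with edgeR adjusted p-values of 0.000221, 0.000154, 0.00164, 0.000194, 4.26e-06 and 3.66e-05. Female and male controls did not overlap for any of these 6, which were picked for their low values. Of all 36 members, 17 did not overlap, and the share over all genes was not counted. The other lower synthesis genes were Cyp51, Tm7sf2, Sc5d, Nsdhl, Ebp, Sqle, Mvd and Msmo1, with log2 fold changes between -1.48 and -0.76; Acat2, Mvk, Pmvk, Fdft1, Lss and Dhcr7 were not called, at -0.58 to 0.06. The calls of Sqle and Msmo1 were lost in 9 and 10 of 27 alternatives, over which their values ran from -1.18 to -0.40 and from -1.12 to -0.60. Nr1h3, the liver X receptor alpha, was the 1 member higher in males. Nr1h3 stood at 19.6, 14.04, 16.9 and 18.2 CPM in the female controls and 14.8, 18.1, 21.3 and 20.4 CPM in female GOF. Male Nr1h3 levels were 24.6, 26.9, 28.8 and 29.1 CPM in controls and 37.1, 27.4, 29.1 and 26.4 CPM in GOF. Every male library lay above every female one. Nr1h3 had 0.67 ± 0.14 in controls and 0.68 ± 0.14 in GOF (edgeR adjusted p = 0.00295 and 0.0017). Both calls were lost with the run of title numbers, described next, as a covariate (log2 fold change 0.72 and 0.79, edgeR adjusted p = 0.0526 and 0.05002). In addition, 5 of 10 macrophage markers were called higher in males in each genotype, against 13.5% of all genes in controls and 13.3% in GOF. The part of macrophages in the level of Nr1h3 was not tested.

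The sexes were spread unevenly over the numbering of the mice. The numbers that end the sample titles fall into 4 runs with gaps of more than 10 between them, and nothing in the labels says what the runs are. Of the female controls, number 1 shared its run with male controls 1, 2 and 3, while 2, 3 and 4 shared theirs with no male. Only that shared run held both sexes, and its only females were female control 1 and female GOF 1. Female control 1 had the most kidney RNA, and male control 2, in the same run, held liver RNA. With the run as a covariate, the comparisons of the sexes rest on that run. Within the shared run, the median relative level of the synthesis genes (log2, against each gene's mean) was 0.61 in the female control and 0.42, 0.41 and -0.34 in the male controls. The other female controls had 1.06, 1.01 and 1.13, and male control 4, in another run, -0.40. With the run as a covariate, 8 members were called in controls in place of 15, and 5 synthesis genes in place of 12; in GOF 5 members were called in place of 10. The synthesis genes that lost the call in controls were Mvd, Idi1, Sqle, Cyp51, Msmo1, Nsdhl and Sc5d, with edgeR adjusted p-values from 0.0806 to 0.551. Their log2 fold changes were -0.73, -1.56, -0.40, -1.13, -0.62, -0.67 and -0.90 with the covariate, against -0.76, -2.14, -0.90, -1.48, -0.76, -1.004 and -1.24 without it; that of Mvd moved least and that of Sqle most in proportion. In the same fit Mvk, Mvd, Idi1, Insig2 and Stard5 lost their call for GOF in males, with edgeR adjusted p-values from 0.0524 to 0.092 and log2 fold changes of -0.31, -0.57, -1.12, -0.33 and 0.90, against -0.39, -0.66, -1.33, -0.34 and 1.09. In each run with both genotypes of a sex, the GOF medians were lower than those of the controls. Female GOF 1 had -0.31 beside female control 1. Female GOF 2 and 3 had -0.59 and -0.46 beside female controls 2, 3 and 4. Male GOF 1 and 2 had -0.59 and -0.60 beside male controls 1, 2 and 3. Male GOF 3 and 4 had -0.78 and -0.71 beside male control 4. Female control 1 and male control 4 were the only controls of their sex in their runs, so no spread of controls is known there. These differences within runs were not tested. Female GOF 4, alone in its run, had -0.09.

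In GOF adrenals Stard5 stood out, 10.1-fold higher in males (3.33 ± 0.35 on the log2 scale, edgeR adjusted p = 1.43e-05). Male GOF 2, the lowest male, was still above the highest female GOF library. Scarb1 and Acat2 were higher in males as well, with 0.96 ± 0.30 and 0.95 ± 0.18 (edgeR adjusted p = 0.0234 and 0.00123); the call of Scarb1 was lost without female GOF 3, female GOF 4 or male GOF 1 (log2 fold change 0.77, 0.86 and 0.91, edgeR adjusted p = 0.0674, 0.0736 and 0.0549). Lower in males were Lipa (-1.90), Hsd17b7 (-1.72), Hmgcs1 (-1.26), Fdft1 (-1.06), Cyp51 (-0.88) and Scap (-0.47). The call of Cyp51 was lost in 18 of 27 alternatives, and with the run of title numbers as a covariate its log2 fold change was -0.23 (edgeR adjusted p = 0.803). In that fit Hsd17b7 (-1.18) and Scap (-0.38) lost their call with a smaller difference (edgeR adjusted p = 0.136 and 0.218), and Scarb1 (1.27) with a larger one (adjusted p = 0.0974). Scap stood at 177, 166, 179 and 171 CPM in the female controls and 185, 157, 198 and 187 CPM in female GOF. Male Scap levels were 162, 147, 111 and 124 CPM in controls and 125, 162, 112 and 127 CPM in GOF. GOF males overlapped GOF females through male GOF 2. Lipa, Hsd17b7, Hmgcs1, Cyp51 and Nr1h3 were called in the same direction in controls.

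The third question was whether GOF acted differently in the sexes, tested as the log2 fold change in males minus that in females. Of 36 members, 5 passed, all with a positive value: Stard5 (2.99 ± 0.46), Fdps (2.61 ± 0.68), Tm7sf2 (1.56 ± 0.27), Stard4 (1.45 ± 0.35) and Ebp (0.74 ± 0.20), with edgeR adjusted p-values of 0.0032, 0.0434, 0.00609, 0.0319 and 0.0449. Over all genes 4.21% passed, 1.59% with a positive and 2.61% with a negative value. In Fdps, Tm7sf2, Stard4 and Ebp the value arose with female controls above the other 3 groups, and in Stard5 with opposite changes. The median over the synthesis genes was 0.65, with 16 of 18 positive (Mvk and Fdft1 were the others), against -0.06 over all genes. Tm7sf2 and Stard5 kept their calls in all 26 alternatives, whereas Fdps lost its call in 16, Ebp in 13 and Stard4 in 11. Their values over the alternatives ran from 2.24 to 3.06, from 0.63 to 0.85 and from 1.29 to 1.74. The number of members that passed ran from 2 to 8 when each library was left out in turn, and was 8 without male control 1.

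Other genes of cholesterol handling were followed as a separate list of 32: 5 rose and 4 fell in GOF females, and 4 rose and 7 fell in GOF males. The 9 and 11 called genes are 28.1% and 34.4% of the list, against 39.6% and 36.9% of all genes. The list's median log2 fold changes were -0.10 and -0.07. In GOF females the largest changes were in the caveolar protein Cav1 (-2.04), the lipoprotein receptor Lrp8 (-1.41), the steroid dehydrogenase Hsd3b1 (0.89), Star (-0.78), whose product brings cholesterol into mitochondria, and Erlin1 (0.59). Star fell in males too (-0.57) and was 10125 ± 1679 CPM in female controls against 5903 ± 1509 in female GOF, and 11256 ± 3216 against 7575 ± 827 in males (SD, n = 4). In GOF males the largest were Apoa1 (-6.37), Cav1 (-2.51), the receptors Vldlr (-1.18) and Lrp8 (-1.03), and Acsl4 (0.82), an acyl-CoA synthetase. Apoa1, a liver apolipoprotein, was 660.1 CPM in male control 2, the library with liver RNA, and 5.39 CPM or less in the others. Between the sexes 7 were higher and 4 lower in males in controls, and 4 higher and 7 lower in GOF, in each case 34.4% of the list, against 23.4% and 29.6% of all genes. The largest differences in controls were those of Apoa1 (6.31) and Lcat (3.44), whose product esterifies cholesterol in plasma. Like Apoa1, Lcat was highest in male control 2, at 30.6 CPM against 2.90 or less elsewhere, and the control groups overlapped for both. Gramd1b, which moves cholesterol from the plasma membrane to the endoplasmic reticulum, was lower in males in both (-1.48 and -1.04), and Erlin1 (0.98 and 0.69) and Fdx1, the electron donor of side-chain cleavage (0.67 and 1.01), were higher. Of the interaction, 1 was positive (Gramd1a, 0.47) and 1 negative (Mbtps1, the protease that cleaves SREBP2, -0.34), or 6.25% of the list against 4.21% of all genes.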

How the data were processed

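Adrenal RNA of 16 mice was read as 1 library per mouse. Groups came from the sample labels, and replicate numbers follow the order of deposition. The deposited read counts are whole numbers per Ensembl gene for 54838 genes, without normalization. The deposited FPKM values were scaled by the authors for gene length and library total; they served for levels between genes and as an alternative unit. Per the labels' protocols, the RNA integrity minimum was 7.0 and reads were paired, of 150 bp. Bowtie2 2.2.3, TopHat2 2.0.12, HTSeq 0.6.1 and DESeq 1.18.0 are named per the submitters' processing notes; the genome build, the annotation and the strand setting are not given in the sources used here. Symbols and positions came from GENCODE M21 (GRCm38), which held 54723 of the identifiers, and promoter sequences from RefSeq (GRCm38.p6).

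The test was edgeR 4.0.16's quasi-likelihood F test in its robust form (R 4.3.3) on the counts, with TMM factors, filterByExpr by group (18214 genes kept) and 1 mean per group over all 16 libraries. Benjamini-Hochberg adjustment ran over all genes tested, with a threshold of 0.05. P-values measure the spread between mice. The SE of a log2 fold change is its size divided by the root of F. All 24 pairs of libraries within a group differed by far more than counting noise (chi-square of 27.1 or more per degree of freedom). The steps were tested on simulated counts with 200 genes changed in female GOF, by 2-fold or 4-fold. For GOF against control in females, 40% of the 2-fold and 83% of the 4-fold changes were called, with 7 false calls. In the interaction, 28% and 65% were called. A gene that was not called may thus still differ. Near-identical copies were stretches of at least 200 bases at 95% identity or more in other transcripts.

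Values in every library are printed for members past the threshold in the interaction and, per role and comparison, for the 2 called members with the largest absolute log2 fold change. Other pathway genes are named only where called, as the 5 largest changes or fewer per comparison. Members, marker lists, other lists and tests were chosen with earlier results of these data known. Marker lists were adrenal cortex, X-zone, zona glomerulosa, medulla, adipocyte, macrophage, liver, kidney tubule, capsule and fibroblast, and endothelium.

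Alternatives were DESeq2 1.42.0, RLE and upper-quartile factors, a minimum of 10 counts in all libraries or no filter, a fit of the compared groups alone, limma 3.58.1 on log2(FPKM + 1) or log2(FPKM + 0.1) (genes with a mean of 0.5 FPKM or more, or no filter), the run of title numbers as covariate, leaving out each library, and leaving out the 3 libraries with liver or kidney RNA together. Tables and plots used Python 3.11.15 with pandas 2.3.3 and matplotlib 3.10.9.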

Additional observations from a re-analysis of the deposited data

Results flagged for a closer look

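Among the 144 sets of 4 libraries (36 genes in 4 groups), 9 had 1 library set apart from the other 3 by more than Dixon's critical value; chance sets apart about 1 in 20, or 7.2 here. In male control 2, the library with liver RNA, Insig2 stood at 86.87 CPM, against 61.75 to 62.07 in the other male controls, and Apoe at 2827 CPM, against 1801 to 1931. In male GOF 2, Stard5 was low at 43.24 CPM, against 172.9 to 198.7 in the other male GOF libraries, and Dhcr7 was high at 793.3 CPM, against 303.3 to 384.9. In male GOF 1, the exporter Abcg1 stood at 64.83 CPM, against 20.11 to 26.38, and Stard3 at 38.11 CPM, against 32.14 to 32.89. That library also had the highest levels of the macrophage markers Gpnmb, at 403 CPM, and Cd68, at 96.1 CPM; their part in the value of Abcg1 was not tested. Stard3 was also set apart in male control 1, at 36.12 CPM against 33.69 to 33.93. Insig1 stood at 113.2 CPM in female control 1, against 84.41 to 88.75, and Sqle at 33.77 CPM in female GOF 4, against 22.84 to 24.61.

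The change in GOF differed between the sexes for 5 genes by edgeR's interaction test. The log2 value (male change minus female change) was 2.993 for Stard5, 2.613 for Fdps, 1.558 for Tm7sf2, 1.449 for Stard4 and 0.7443 for Ebp. Stard5 moved in opposite directions, at -1.90 (females) and 1.09 (males) on the log2 scale. The other 4 fell in females, and of these Tm7sf2 alone was also called in males.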

How the results depend on the processing

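None of the 71 called member results changed direction in any alternative. Of these, 46 kept their call in all alternatives and 56 in every fit without 1 library. By comparison, 21 of 23 were kept in all alternatives for GOF in females, 11 of 18 for GOF in males, 7 of 15 between the sexes in controls, 5 of 10 between the sexes in GOF and 2 of 5 in the interaction (Tm7sf2 and Stard5). With the title runs as a covariate, members called between the sexes went from 15 to 8 in controls and from 10 to 5 in GOF, and synthesis genes from 12 to 5 and from 5 to 3. With only the groups compared, 8 synthesis genes in place of 5 were called between the sexes in GOF. With limma on log2(FPKM + 1) and no filter, 6 in place of 11 were called in GOF males. The interaction called 5 members, 2 with no filter and 3 without the 3 libraries with liver or kidney RNA; without those, the other 4 comparisons called 22, 15, 13 and 10 members in place of 23, 18, 15 and 10. Leaving out each library in turn gave 22 to 24 members in GOF females, 13 to 21 in GOF males, 13 to 19 between the sexes in controls, 8 to 12 in GOF and 2 to 8 in the interaction. The same fits gave 16 to 17 synthesis genes in GOF females, 6 to 14 in GOF males (6 without male control 1, 14 without male control 4), 10 to 13 between the sexes in controls and 4 to 6 in GOF. The cause of these moves was not tested. The median of all genes, near 0, changed sign under some alternatives; upper-quartile factors moved it in the interaction from -0.06 to 0.05 on the log2 scale. No paired analysis was possible because the labels give no pairing and the replicate numbers only follow the order of deposition. Fdps had the lowest counts of the members, with as few as 15 in a library.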
